A study of Rattus norvegicus with 11 samples.

Results

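The 10 genes described here encode the signalling chains of the T cell receptor (Cd3e, Cd3d, Cd3g and Cd247), its coreceptors (Cd4, Cd8a and Cd8b), the kinase that the coreceptors carry (Lck) and a pair of related transcription factors of T cells (Lef1 and Tcf7). They were chosen by name, and each was found on 1 row of the deposited table, giving 10 of its 32623 genes. RNA came from WBCs, the cells of peripheral blood left once the red blood cells had been lysed, of male Wistar rats that were 7 weeks old at the start. Collagen-induced arthritis (CIA) was raised in 4 rats with bovine type II collagen in incomplete Freund's adjuvant, boosted on day 7. Each of these rats was sampled at Nampt++ status (about day 8) and at Nampt+ status (about day 14), statuses that the authors assigned by PCR of Nampt, and 3 normal healthy rats served as controls. Both statuses thus come from the same immunised animals, time and status change together and cannot be told apart, and WBCs are a mixture of cell types.

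A T cell recognises antigen through a pair of variable receptor chains that have no signalling tail of their own. The CD3 chains and the zeta chain (Cd247) supply that tail and carry the receptor to the cell surface. CD4 marks helper T cells and CD8 cytotoxic T cells, and either brings Lck to the receptor, where Lck phosphorylates the CD3 and zeta chains. Lef1 and Tcf7 encode DNA-binding factors of the Wnt pathway that are high in naive T cells. In rats CD4 is also found on monocytes and macrophages, and CD8 alpha (Cd8a) on NK cells, so neither gene marks T cells alone.

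Total counts per sample ran from 65340027 to 85819418, and the 11 haemoglobin genes took 6.84% to 42.8% of them. The library of Nampt+ 2, with 42.8% haemoglobin, had a TMM scaling factor of 0.578, and that of control 2, with 30.9%, had 0.784, while the other 9 lay between 0.874 and 1.295. These 2 libraries stood apart in what follows, and several differences are given with and without them. FPKM, which divides the reads of a gene by gene length and sequencing total, is the scale of all levels below unless TMM-scaled counts are named, and TMM corrects for reads taken up by a few abundant genes. Groups were compared on the counts by the quasi-likelihood test of edgeR. Following the study's thresholds, a call needed an unadjusted p under 0.05 together with group mean FPKMs whose ratio exceeded 2 or fell below 0.5, and p values were adjusted by Benjamini-Hochberg over every gene tested. The labels tie the CIA samples to their rats but name no animal for each control, so the p values measure the spread between these samples, which may in part be technical.

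No difference of a member between the groups was larger than the spread between samples. None of the 10 was called in any of the comparisons, and none had an unadjusted p under 0.05 by edgeR, by DESeq2 or by limma, nor was there a member whose groups did not overlap. In the same fits 0.642% of the genes tested were called between Nampt+ and Nampt++ samples, 0.686% between Nampt++ samples and controls and 0.497% between Nampt+ samples and controls. At these shares 0 of 10 is what the background gives, and edgeR found 0 genes in the whole table with an adjusted p under 0.05. At an unadjusted p under 0.05 the background was 2.28%, 1.57% and 0.87%, and groups did not overlap in 0.41%, 1.1% and 0.444% of the genes tested. Across the 11 samples, in contrast, FPKM spanned between 3.37-fold (Cd3e) and 6.60-fold (Cd4).

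**Figure D1:**
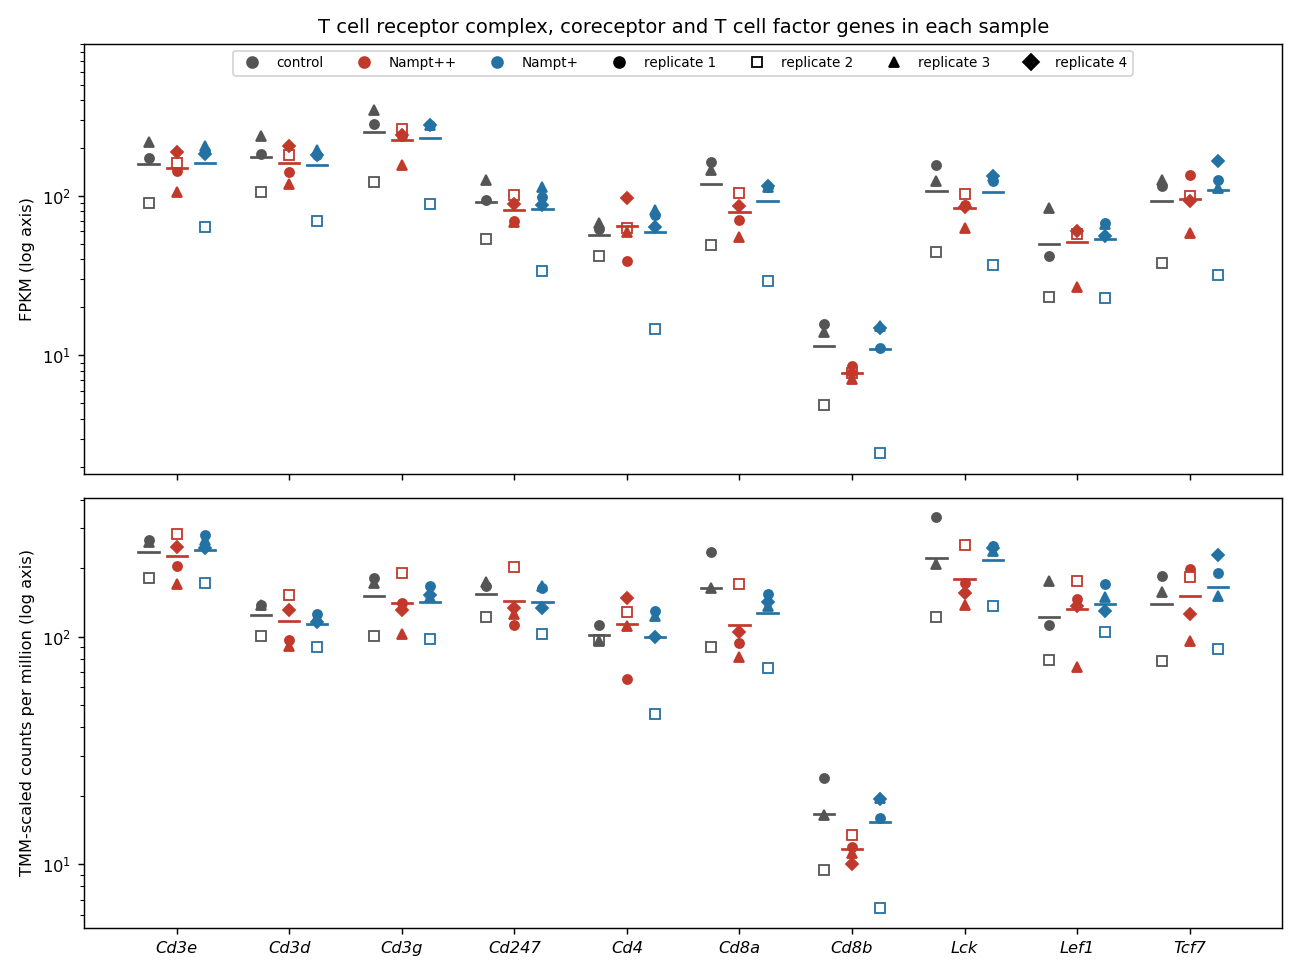
Level of each member in each of the 11 samples, as FPKM (upper panel) and as TMM-scaled CPM (lower panel), both on log axes. Points are samples, shaped by replicate number, with replicate 2 drawn open, and horizontal lines are the means of 3 controls, 4 Nampt++ and 4 Nampt+ samples. Nampt+ 2 is the lowest sample of all 10 members in the upper panel and of 6 in the lower.

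Among the CD3 chains, Cd3e (ENSRNOG00000016069), the epsilon chain shared by both CD3 dimers, stood at 172, 91.0 and 217 FPKM in controls 1 to 3, at 144, 160, 107 and 189 in Nampt++ samples 1 to 4 and at 191, 64.4, 205 and 183 in Nampt+ samples 1 to 4. The groups overlapped, Nampt+ 2 was lowest and control 2 next. The group means were 160 ± 63.8 (SD, n = 3), 150 ± 34.3 (SD, n = 4) and 161 ± 64.9 (SD, n = 4) FPKM. Cd3e differed by a log2 fold change of 0.09 between Nampt+ and Nampt++ samples (SE 0.22, edgeR, unadjusted p = 0.71, adjusted p = 0.9996), with a 95% interval from 0.746- to 1.51-fold. That interval excludes a doubling and a halving, but not a smaller change. Against controls its log2 fold change was -0.06 in Nampt++ samples (0.642- to 1.43-fold, edgeR, unadjusted p = 0.807) and 0.01 in Nampt+ samples (0.679- to 1.49-fold, edgeR, unadjusted p = 0.972).

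Cd3d (ENSRNOG00000015994), the delta chain, gave 184, 106 and 236 FPKM in controls, 141, 180, 119 and 206 in Nampt++ samples and 180, 70.1, 195 and 181 in Nampt+ samples. Cd3g (ENSRNOG00000015945), the gamma chain and the most abundant member per length, gave 284, 123 and 345 in controls, 239, 262, 157 and 242 in Nampt++ samples and 279, 88.8, 278 and 278 in Nampt+ samples. The same samples were low as for Cd3e, and 3 of the 4 Nampt+ samples were within 2 FPKM of each other for Cd3g. Log2 fold changes between Nampt+ and Nampt++ samples were -0.05 for Cd3d (SE 0.21) and 0.01 for Cd3g (SE 0.24). Cd247 (ENSRNOG00000003298), the zeta chain, was at 94.5, 54.1 and 127 FPKM in controls, at 69.5, 101, 69.0 and 89.2 in Nampt++ samples and at 98.3, 33.6, 113 and 87.6 in Nampt+ samples. It followed the CD3 genes, with a log2 fold change of -0.02 (SE 0.24) between the CIA statuses and -0.10 and -0.14 for Nampt++ and Nampt+ samples against controls. Without Nampt+ 2 the log2 fold changes between Nampt+ and Nampt++ samples were 0.22 for Cd3e, 0.04 for Cd3d, 0.15 for Cd3g and 0.10 for Cd247, none with an unadjusted p under 0.05. Without control 2 those of Nampt++ samples against controls were -0.22 for Cd3e, -0.22 for Cd3d, -0.32 for Cd3g and -0.25 for Cd247, again none under that threshold. Without control 1, Cd3e and Cd3g were at 0.034 and 0.054 there.

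The CD3 genes varied less against each other than from sample to sample. Although Cd3e itself spanned 3.37-fold, the ratio of Cd3d to Cd3e stayed between 0.942 and 1.16 and that of Cd3g to Cd3e between 1.29 and 1.66 FPKM per FPKM, spreads of 0.10 and 0.13 (SD of log2, n = 11). The ratio of Cd3g to Cd3d ran more widely, from 1.17 to 1.69 (SD of log2 0.17). The ratio of Cd247 to Cd3e ran from 0.473 to 0.648 (SD of log2 0.16). To Cd3e, the other members were looser, with an SD of log2 of 0.26 for Lef1, 0.27 for Lck, 0.31 for Cd8a, 0.36 for Tcf7, 0.38 for Cd4 and 0.39 for Cd8b. The spread of a ratio takes in the counting error of both genes, and Cd8b had the fewest reads of the members (265 to 1853 a sample). These ratios do not depend on scaling, and they were not compared with those of other gene pairs.

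Cd3g, Cd3d and Cd3e lie side by side on chromosome 8, where the table places them between 49274960 and 49308806, with Cd3d on the opposite strand to the other 2. The genome build of these positions is not given in the sources used here. No link between sequence and level was tested, and the 250 bases before each start are shown as a description. They are RefSeq sequences of the GRCr8 assembly, 5′ to 3′ on the gene's own strand, from chr8:54183919-54184168 (minus strand) for Cd3g, chr8:54185269-54185518 (plus strand) for Cd3d and chr8:54211771-54212020 (minus strand) for Cd3e. Capitals mark the letters AGGAAG (an Ets core, CTTCCT on the other strand) and CTTTGAT (the TCF/LEF core, ATCAAAG on the other strand).
Cd3g: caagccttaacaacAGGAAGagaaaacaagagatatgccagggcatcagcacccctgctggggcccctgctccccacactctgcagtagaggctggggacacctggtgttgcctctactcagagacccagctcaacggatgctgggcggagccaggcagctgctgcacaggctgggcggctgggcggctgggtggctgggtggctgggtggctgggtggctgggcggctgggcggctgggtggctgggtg
Cd3d: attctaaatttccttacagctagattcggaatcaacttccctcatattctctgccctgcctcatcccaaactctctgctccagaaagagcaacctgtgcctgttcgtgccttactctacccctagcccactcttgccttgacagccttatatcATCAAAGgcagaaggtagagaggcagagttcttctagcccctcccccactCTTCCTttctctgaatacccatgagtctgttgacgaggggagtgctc
Cd3e: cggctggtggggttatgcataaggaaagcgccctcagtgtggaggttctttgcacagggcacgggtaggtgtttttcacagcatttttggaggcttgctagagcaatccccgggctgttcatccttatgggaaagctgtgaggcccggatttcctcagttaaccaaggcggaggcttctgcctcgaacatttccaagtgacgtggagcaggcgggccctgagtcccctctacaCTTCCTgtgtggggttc

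Each of the 3 held AGGAAG once on either strand, and the Cd3d window also held the TCF/LEF letters, 97 to 91 bases before the start. Over the 8 members with a promoter in the table, AGGAAG was in the windows of 6 (Cd247, Cd3d, Cd3e, Cd3g, Lck and Tcf7). It was in 29.5% of all 33469 promoter windows of that length. Members were counted by gene, from a match in any of their windows, while the shares are of windows, so the units differ. The letters CTTTGAT were in 1 member and in 3.15% of all windows, and TGTGGT, a Runx core, in 1 member (Lck) and in 14.5%. Matches of the 3 motifs did not overlap in these windows, and Lck has 2 windows, for 2 starts. A match is a description of the sequence and no site is claimed.

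Cd4 (ENSRNOG00000016294) was at 61.9, 41.8 and 67.7 FPKM in controls, at 39.3, 62.6, 59.9 and 96.7 in Nampt++ samples and at 76.3, 14.6, 81.8 and 63.7 in Nampt+ samples. Nampt+ 2 was again lowest, at less than any other sample, but here Nampt++ 1 and not control 2 came next, and Nampt++ 4 was highest. Its log2 fold changes were -0.19 between Nampt+ and Nampt++ samples (SE 0.36, 0.502- to 1.54-fold, edgeR, unadjusted p = 0.614, adjusted p = 0.9996), 0.16 for Nampt++ samples against controls (SE 0.28, edgeR, unadjusted p = 0.579) and -0.04 for Nampt+ samples against controls (SE 0.34, edgeR, unadjusted p = 0.911). Without Nampt+ 2 the first became 0.05 and the last 0.20. Of the monocyte markers, 11 of 12 were in the table, 2 of them with a mean FPKM under 1, among these Cd163, which is listed at 0 in all samples. Their summed FPKM ran from 4230 to 10751 in controls, from 5726 to 12896 in Nampt++ samples and from 5446 to 13875 in Nampt+ samples. Csf1r, a receptor gene of that list, had 15.9 FPKM in Nampt+ 2 and 88.5 in Nampt++ 4, its lowest and highest samples, as for Cd4. The part of monocytes in the Cd4 level was not tested.

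Cd8a (ENSRNOG00000007178) and Cd8b (ENSRNOG00000007129), the alpha and beta chains of CD8, are neighbours on chromosome 4, listed between 99185885 and 99243351. Cd8a had 164, 48.9 and 147 FPKM in controls, 70.9, 104, 55.0 and 86.0 in Nampt++ samples and 114, 29.4, 114 and 115 in Nampt+ samples. Cd8b had 15.8, 4.87 and 13.9 FPKM in controls, 8.57, 7.74, 7.15 and 7.76 in Nampt++ samples and 11.2, 2.44, 15.3 and 14.8 in Nampt+ samples. By FPKM, controls 1 and 3 and 3 of the Nampt+ samples were above every Nampt++ sample for both genes. Control 2 and Nampt+ 2 were below every Nampt++ sample. On TMM-scaled CPM this layout held for Cd8b but not for Cd8a. There Cd8a in Nampt++ 2 (170) was above control 3 (164) and the 3 higher Nampt+ samples (154, 137 and 143). Control 2 (89.8) was above Nampt++ 3 (81.1) for Cd8a. The 4 Nampt++ samples were close together for Cd8b, at 7.80 ± 0.585 FPKM (SD, n = 4), against 11.5 ± 5.84 (SD, n = 3) in controls and 10.9 ± 5.95 (SD, n = 4) in Nampt+ samples.

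Against controls the log2 fold change in Nampt++ samples was -0.54 for Cd8a (SE 0.38, 0.377- to 1.26-fold, edgeR, unadjusted p = 0.191) and -0.52 for Cd8b (SE 0.31, 0.428- to 1.14-fold, edgeR, unadjusted p = 0.128), neither of them beyond the spread between samples, and both with an adjusted p of 0.9999. Without control 2 these became -0.83 (edgeR, unadjusted p = 0.0425) and -0.80 (edgeR, unadjusted p = 0.0104), with 2 controls left. Without control 1, which had the highest level of both genes, they shrank to -0.17 (edgeR, unadjusted p = 0.664) and -0.16 (edgeR, unadjusted p = 0.589). From Nampt++ to Nampt+ status Cd8b differed by 0.40 (SE 0.32, 0.794- to 2.18-fold, edgeR, unadjusted p = 0.248) and Cd8a by 0.17 (SE 0.30, 0.701- to 1.81-fold, edgeR, unadjusted p = 0.584). Without Nampt+ 2 the value for Cd8b was 0.65 (edgeR, unadjusted p = 0.00471) and for Cd8a 0.36 (edgeR, unadjusted p = 0.205). Without any other single sample, Cd8b lay between 0.24 and 0.47, none with an unadjusted p under 0.05. So without control 2 both CD8 genes passed an unadjusted p under 0.05 in Nampt++ samples against controls, as did 1026 of 11303 genes tested. Without Nampt+ 2, Cd8b passed it between the statuses, as did 781 of 11356 genes tested. With all samples kept, 176 and 256 of 11219 genes passed it in these comparisons, so more of all genes passed with those samples left out. Neither CD8 gene was called in these fits. Nampt+ samples against controls gave -0.38 for Cd8a (SE 0.37, edgeR, unadjusted p = 0.335) and -0.14 for Cd8b (SE 0.43, edgeR, unadjusted p = 0.76). Without control 2 these were -0.67 and -0.42, and without control 1 they were -0.026 and 0.21. With the replicate number as a block, Cd8a gave -0.40 in that comparison (edgeR, unadjusted p = 0.0492). Controls are other rats, so a shared number pairs unrelated animals there and no conclusion is drawn from that p.

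**Figure D2:**
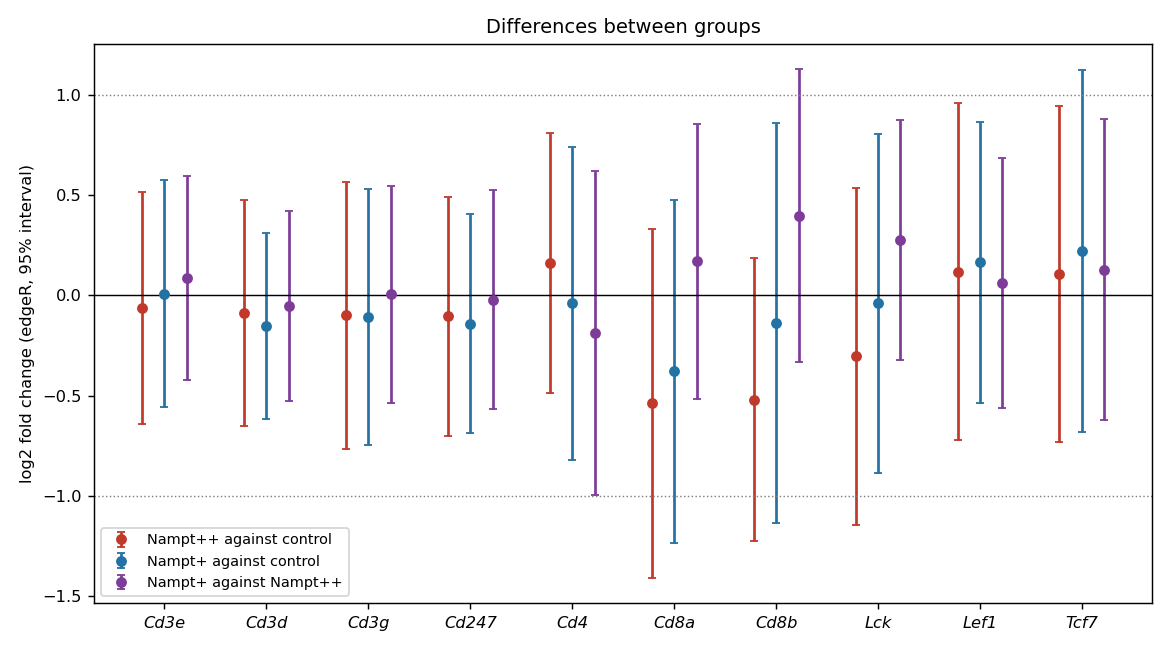
Log2 fold change of each member in the 3 comparisons, from edgeR, with its 95% interval. Dotted lines mark a doubling and a halving, and every interval includes 0, with Cd8a and Cd8b lowest in Nampt++ samples against controls, at -0.54 and -0.52.

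The ratio of Cd8a to Cd8b ran from 10.04 to 10.53 in the controls, from 7.69 to 13.5 in Nampt++ samples and from 7.43 to 12.04 in Nampt+ samples. Against the NK cell list, of which 12 of 12 genes were in the table and none was at 0 throughout, control 1 stood out with a summed FPKM of 654, and it also had the highest Cd8a, Cd8b and Lck. The other 2 controls had 230 and 252, Nampt++ samples 119 to 309 and Nampt+ samples 101 to 355, with Nampt+ 2 lowest. One gene of that list, Gzma, a granule protease, was called lower in Nampt+ samples than in controls (log2 fold change -1.68, SE 0.61, edgeR, unadjusted p = 0.0255, adjusted p = 1.0), with 141 FPKM in control 1 against 20.1 and 41.2 in the other controls. The part of NK cells in the Cd8a level was not tested.

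The balance of Cd4 to Cd8a in a sample was 0.378, 0.854 and 0.462 in controls, 0.554, 0.601, 1.09 and 1.12 in Nampt++ samples and 0.670, 0.499, 0.718 and 0.552 in Nampt+ samples. Nampt++ samples 3 and 4 were the highest of all, and the groups overlapped. Means were 0.565 ± 0.254 (SD, n = 3), 0.842 ± 0.307 (SD, n = 4) and 0.610 ± 0.102 (SD, n = 4). The log2 difference was 0.59 between Nampt++ samples and controls (two-sided exact permutation test, p = 0.2), -0.41 between Nampt+ and Nampt++ samples (exact permutation test, p = 0.286) and 0.19 between Nampt+ samples and controls (exact permutation test, p = 0.571). With all samples kept, the smallest p these designs can give is 0.0286. The first difference was 0.94 without control 2 (exact permutation test, p = 0.133) and 0.35 without control 1 (exact permutation test, p = 0.467). With a control left out the test cannot reach a p under 0.05, so no conclusion is drawn from these p values. For 4 ratios (Cd4 to Cd8a, Cd8a to Cd8b, Cd4 to Cd3e and Lef1 to Tcf7) in 3 comparisons, the 12 tests had Benjamini-Hochberg adjusted p values of 0.986 or above (exact permutation tests).

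**Figure D3:**
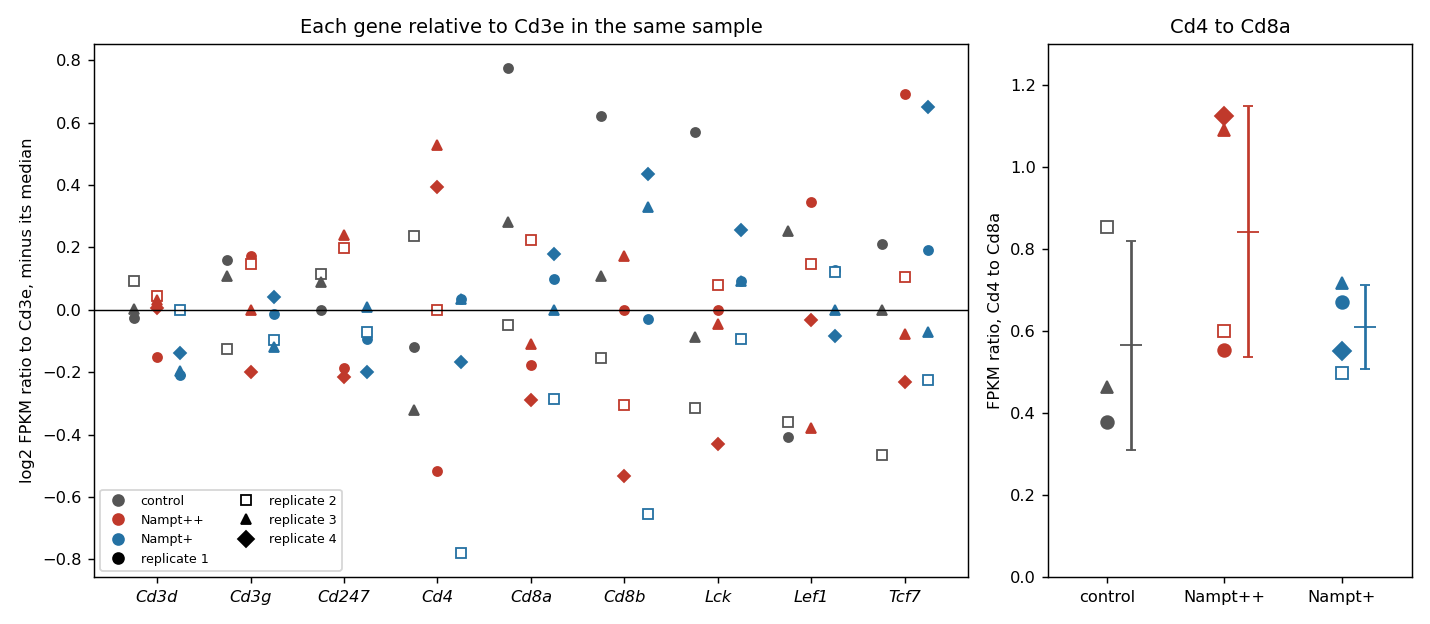
Left, log2 FPKM ratio of each other member to Cd3e in the same sample, minus the median of that ratio over the 11 samples. Right, FPKM ratio of Cd4 to Cd8a, with group means and SD. Cd3d and Cd3g stay close to 0 while Cd4, Cd8b and Tcf7 scatter most, and on the right Nampt++ samples 3 and 4 (1.09 and 1.12) are the highest.

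Lck (ENSRNOG00000009705), on chromosome 5, had 156, 44.6 and 124 FPKM in controls, 87.6, 103, 62.8 and 85.1 in Nampt++ samples and 124, 36.7, 133 and 133 in Nampt+ samples. By FPKM, as with the CD8 genes, the 3 higher Nampt+ samples exceeded all Nampt++ samples and Nampt+ 2 was below them. On TMM-scaled CPM, Nampt++ 2 (252) was above the 3 higher Nampt+ samples (250, 238 and 246). Nampt+ 2 (136) was still below every Nampt++ sample there, but close to Nampt++ 3 (139). The log2 fold change of Lck from Nampt++ to Nampt+ status was 0.28 (SE 0.26, 0.801- to 1.84-fold, edgeR, unadjusted p = 0.319), and 0.45 without Nampt+ 2 (edgeR, unadjusted p = 0.0832). Against controls it was -0.30 in Nampt++ samples (SE 0.36, edgeR, unadjusted p = 0.429) and -0.04 in Nampt+ samples (SE 0.37, edgeR, unadjusted p = 0.921). Without control 2 these were -0.59 (edgeR, unadjusted p = 0.102) and -0.33 (edgeR, unadjusted p = 0.348), and without control 1 they turned to 0.12 (edgeR, unadjusted p = 0.736) and 0.38 (edgeR, unadjusted p = 0.326).

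Lef1 (ENSRNOG00000010121), on chromosome 2, had 42.3, 23.1 and 84.3 FPKM in controls, 59.6, 57.9, 26.7 and 60.2 in Nampt++ samples and 68.1, 22.8, 66.8 and 56.4 in Nampt+ samples. Tcf7 (ENSRNOG00000005872), on chromosome 10, had 115, 38.1 and 125 in controls, 135, 99.9, 58.4 and 92.8 in Nampt++ samples and 126, 31.8, 113 and 166 in Nampt+ samples. Each group held 1 sample that was low for both factors (control 2, Nampt++ 3 and Nampt+ 2), and the groups overlapped. Log2 fold changes against controls were 0.12 for Lef1 (SE 0.36) and 0.11 for Tcf7 (SE 0.36) in Nampt++ samples, and 0.17 for Lef1 (SE 0.30) and 0.22 for Tcf7 (SE 0.39) in Nampt+ samples. Between Nampt+ and Nampt++ samples they were 0.06 for Lef1 (SE 0.28) and 0.13 for Tcf7 (SE 0.33). Both factors turned the other way against controls without control 2, to -0.12 and -0.18 in Nampt++ samples and -0.069 and -0.064 in Nampt+ samples for Lef1 and Tcf7. Leaving out another control kept them above 0, with Lef1 at 0.47 and 0.53 without control 3 and Tcf7 at 0.36 and 0.47 without control 1. The intervals of both factors reached beyond 1.5-fold upwards in all comparisons, up to 2.18-fold for Tcf7 in Nampt+ samples against controls. Lef1 and Tcf7 were not in a constant proportion, with 0.339 FPKM of Lef1 per FPKM of Tcf7 in Nampt+ 4 and 0.718 in Nampt+ 2.

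Per length, the order of the mean levels over all samples was Cd3g (234 FPKM), Cd3d (163), Cd3e (157), Tcf7 (100.1), Lck (99.1), Cd8a (95.3), Cd247 (85.2), Cd4 (60.6), Lef1 (51.7) and Cd8b (9.95). Neighbours kept this order in 11 of 11 samples only for Cd3g over Cd3d, Cd3e over Tcf7 and Lef1 over Cd8b, and in 10 for Cd247 over Cd4. Cd3d over Cd3e and Cd8a over Cd247 held in 7 samples, Cd4 over Lef1 in 8, Lck over Cd8a in 6 and Tcf7 over Lck in 5. Tcf7, Lck, Cd8a and Cd247 thus could not be ranked beyond their spread. Cd8b was far below its partner, at a median of 10.2 FPKM of Cd8a per FPKM of Cd8b.

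The spread between samples ran through all members. By FPKM, Nampt+ 2 was the lowest of the 11 samples for 10 of 10 members and control 2 was among the 2 lowest for 9, while control 3 was highest for 5 and control 1 for 3. Summed over the members, the FPKM was 395 in Nampt+ 2, 575 in control 2, 721 in Nampt++ 3 and 995 to 1487 in the other 8 samples. On TMM-scaled counts Nampt+ 2 was lowest for 6 members, and control 2 and Nampt++ 3 for 2 each, and the whole span narrowed, from 3.37- to 1.67-fold for Cd3e, from 6.60- to 3.25-fold for Cd4 and from 6.47- to 3.75-fold for Cd8b. The erythroid list, of which 9 of 12 genes were in the table, summed to 114056 FPKM in Nampt+ 2, the highest of all samples, against 14647 to 97065 in the others. The neutrophil list (12 of 12 in the table, 2 of them, Ltf and Mpo, with a mean under 1) summed to 15608 in Nampt+ 2 and 14177 in control 2, within a range of 2227 to 40489. The B cell list (9 of 10) was at 193 and 168 there, the lowest values in a range up to 790. In bulk WBCs, fewer T cells and less of these RNAs per T cell cannot be told apart, and the part of other cell types in the low samples was not tested.

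The 4 CIA rats gave pairs of samples, and the direction from Nampt++ to Nampt+ status differed between them. In rat 1, 9 of 10 members were higher at Nampt+ status, with a median FPKM ratio of 1.31, and Tcf7 was the exception at 0.938. In rat 2 none was higher, with a median of 0.335 and ratios between 0.234 (Cd4) and 0.401 (Cd3e). In rat 3 all 10 were higher, with a median of 1.93 and a range of 1.37 (Cd4) to 2.498 (Lef1). Rat 4 was split, with 5 members higher, a median of 1.06, and ratios from 0.659 (Cd4) to 1.902 (Cd8b). TMM scaling left the number of members higher in each rat as it was, and moved the median to 0.508 in rat 2 and 1.57 in rat 3. With the rat as a block, no member had an unadjusted p under 0.05 in edgeR between the statuses, and Cd8b stood at 0.30 (edgeR, unadjusted p = 0.458).

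**Figure D4:**
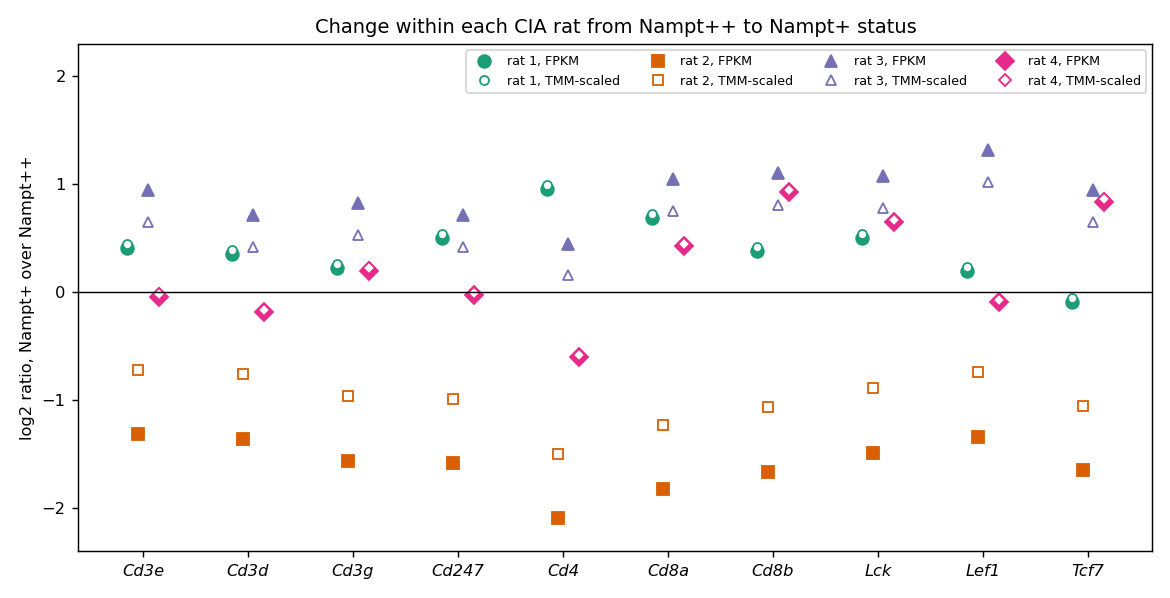
Log2 ratio of Nampt+ to Nampt++ status for each member in each of the 4 CIA rats, from FPKM (filled) and from TMM-scaled counts (open). All members are below 0 in rat 2 and above 0 in rat 3, while rat 4 has 5 above and 5 below.

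Other genes of the receptor pathway were read from lists in the same fits. Of 29 genes of receptor-proximal signalling, 27 were in the table and tested, and 0 were called or had an unadjusted p under 0.05 in edgeR in any comparison. Their median log2 fold change was 0.10 between Nampt+ and Nampt++ samples, -0.06 for Nampt++ samples and 0.06 for Nampt+ samples against controls, beside 0.07, -0.09 and -0.07 for the members and medians within 0.01 of 0 for all genes tested. The smallest p in Nampt++ samples against controls was that of Zap70, the kinase that docks on phosphorylated CD3 and zeta chains, at 26.8 against 41.5 FPKM (log2 fold change -0.64, SE 0.30, edgeR, unadjusted p = 0.068). Rasgrp1, an activator of Ras, stood at 7.96 against 12.2 FPKM (unadjusted p = 0.113), and Themis, a regulator of receptor signalling in thymocytes, at 2.06 against 3.30 (unadjusted p = 0.152). None of these passed the threshold.

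Of 16 costimulatory and adhesion receptors, 15 were tested and 0 were called. Cd5, a receptor that restrains T cell receptor signalling, had 42.3, 13.6 and 25.1 FPKM in controls, 17.7, 15.6, 15.0 and 21.7 in Nampt++ samples and 35.1, 11.7, 32.8 and 34.8 in Nampt+ samples. By FPKM it had the same layout as Cd8a, with 3 Nampt+ samples above and Nampt+ 2 below all Nampt++ samples. Its log2 fold change between the statuses was 0.71 (SE 0.17, edgeR, unadjusted p = 0.00278, adjusted p = 0.9996), and it was not called because the ratio of means was 1.64. Tnfrsf4, the OX40 receptor of activated T cells, was at 4.89 in Nampt++ samples against 3.24 FPKM in controls (log2 fold change 0.61, edgeR, unadjusted p = 0.0458, adjusted p = 0.9999), likewise not called. Ctla4, an inhibitory receptor, was at 34.7 in Nampt+ samples against 20.9 FPKM in controls (edgeR, unadjusted p = 0.127).

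Of 10 receptor chain symbols looked for, 1 was found, Trbv16, a variable segment of the beta chain, at 16.0 FPKM in Nampt++ samples, 14.3 in Nampt+ samples and 8.30 in controls (Nampt++ against controls, log2 fold change 0.98, SE 0.43, edgeR, unadjusted p = 0.0521). The other 9 symbols were not analysed here. Of 20 genes of the naive and lineage programme 19 were tested, and of 11 partners of Tcf7 and Lef1 8 were tested, with 0 called and 0 at an unadjusted p under 0.05 in edgeR in each comparison. Ccr7, the lymph node homing receptor of naive T cells, was at 192 FPKM in controls, 196 in Nampt++ samples and 229 in Nampt+ samples. Bcl11b, a factor that fixes T cell identity, was at 7.20 in controls, 4.75 in Nampt++ samples and 5.76 in Nampt+ samples, and Tle3, a corepressor that Tcf7 and Lef1 bind, was at 34.4, 51.8 and 41.7, none past the threshold. Of the 10 platelet genes, 1 was called, Ppbp, a platelet chemokine, lower in Nampt++ samples than in controls (log2 fold change -1.09, edgeR, unadjusted p = 0.0283, adjusted p = 0.9999). The median of that list was 0.02, and Pf4 and Gp9 stood at 0.37 and 0.36 without passing the threshold.

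Among 7133 other genes whose mean FPKM reached 5, those whose log2(FPKM + 1) followed the mean of Cd3e, Cd3d and Cd3g most closely were Tmed4, Nono, Usp5, Gfra3, Fam241b, Skap1, Adh4 and Impdh1, with Pearson's r of 0.982 to 0.989 over 11 samples from 7 rats. Skap1 is an adaptor of receptor signalling. Among those closest to Cd4 were Opa1, Prkch, Tmed3 and Rps25, with r of 0.967 to 0.977. Among the members, r with the CD3 mean was 0.968 for Cd247, 0.948 for Cd8a, 0.934 for Lck, 0.920 for Lef1, 0.913 for Tcf7, 0.905 for Cd8b and 0.852 for Cd4. All values of a sample share its library, haemoglobin share and scaling. Without Nampt+ 2 and control 2, r was 0.872 for Cd247, 0.858 for Lef1, 0.849 for Cd8a, 0.782 for Lck, 0.667 for Tcf7, 0.654 for Cd8b and 0.459 for Cd4, while the 8 genes closest to the CD3 mean kept r of 0.933 to 0.985. Those 8 genes were picked by their r over all 11 samples, which favoured a high r among the samples kept. The members were chosen by name, so the values cannot be set against each other. All of these r are descriptions over few samples.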

How the data were processed

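RNA-sequencing of WBCs from 11 samples of 7 rats was used. The deposited extraction text mentions retinas, and samples were taken as WBCs as their labels and the paper say. Libraries were made from poly(A) RNA and read from both ends, and the submitters' processing notes name cutadapt 1.9, HISAT2 2.0.4 and StringTie 1.3.4. Genome build and counter are not given in the sources used here. The counts, whole reads per gene, were deposited without normalization by the authors. The FPKM were also deposited by the authors, with 0.0001 standing for 0. Each pair of groups was fitted with edgeR 4.0.16 (quasi-likelihood test, TMM, R 4.3.3) over genes whose mean FPKM reached 1, and the scripts were tested on simulated counts. Single members were also compared on log2(FPKM + 1) by two-sided exact permutation, with p values of 0.314 or above. DESeq2 1.42.0 and limma 3.58.1 served as alternatives, with other filters, scalings, pseudocounts (0.1), all groups in 1 fit, the replicate block and each sample left out. Leaving out both low libraries, and TMM-scaled ranks, were added after seeing the data. Members and gene lists were chosen with earlier results of these data known. Genes named beyond the members were among those of each list with the smallest p against controls, or called or past the unadjusted threshold, and those closest in pattern to the CD3 genes or Cd4. The values of 1 gene named by this rule are not reported here. A few others (Ccr7, Csf1r) were chosen after their values were seen.

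In CIA rats the sample numbers stand for the animal (deviations from group means correlated at -0.29, -0.27, 0.25 and 0.06 for rats 1 to 4). Controls are other rats than the CIA rats, so the replicate block has no basis in the design for comparisons with controls. Nampt+ samples and controls sharing a number correlated at 0.11, 0.54 and 0.22, and Nampt++ samples and controls at 0.08, -0.57 and -0.35. Replicates differed far beyond counting error (chi-square per degree of freedom of 287 or above). Counts were scaled to library totals there, with haemoglobin genes kept in, and the source of this spread was not tested. Promoter windows were taken from RefSeq (GRCr8) and were found for 8 members.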

Additional observations from a re-analysis of the deposited data

Results flagged for a closer look

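Within groups of 4, 28 sets of values (10 members and 4 ratios in the Nampt++ and Nampt+ samples) were examined for a sample far from the other 3, and 7 passed Dixon's 95% criterion, where chance passes about 1 in 20. In Nampt+ 2, Cd3e stood at 64.4 FPKM, Cd3d at 70.1, Cd3g at 88.8, Cd4 at 14.6, Cd8a at 29.4 and Lck at 36.7, all below the other 3 Nampt+ samples. These 6 share 1 library, which had the highest haemoglobin share (42.8%) and the lowest TMM factor (0.578), so they are not 6 separate events. In Nampt++ 3, Lef1 stood at 26.7 FPKM against 57.9 to 60.2 in the other 3. On TMM-scaled counts of the 10 members, 2 of 20 sets passed, Cd8a and Lck in Nampt+ 2, and the CD3 genes, Cd4 and Lef1 did not. No cause was tested.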

How the results depend on the processing

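With every alternative run, 0 members were called in each comparison. The number of all genes called moved more. Without a filter it was 295, 306 and 261 (between the statuses, then for Nampt++ and for Nampt+ samples against controls), and at a mean FPKM of 10 or more it was 19, 25 and 14, against 72, 77 and 56. More or fewer genes were tested there by construction. In Nampt++ samples against controls it was 121 with DESeq2, 145 and 140 with limma at pseudocounts of 1 and 0.1, and 46 with the replicate block. In Nampt+ samples against controls it was 129 without both low libraries. The share of higher genes among those called in Nampt++ samples against controls, 48.1%, was 37.8% with upper quartile scaling and 38.0% without haemoglobin genes. Leaving out single samples gave 58 to 165 genes between the statuses (165 without Nampt+ 2, 163 without Nampt++ 2), 53 to 462 in Nampt++ samples (462 without control 2, 184 without Nampt++ 2, 142 without control 3) and 49 to 136 in Nampt+ samples against controls (136 without control 2, 112 without control 3, 98 without Nampt+ 1). With DESeq2 5, 5 and 4 genes had an adjusted p under 0.05, none of them a member. The cause of these moves was not tested.

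Small log2 fold changes changed sign. Between Nampt+ and Nampt++ samples Cd3g (0.01) was -0.023 without a filter, -0.0076 with DESeq2, -0.013 without haemoglobin genes, and -0.078 and -0.079 with limma at pseudocounts of 1 and 0.1. Cd3e was -0.00093 and -0.0020 with limma. At the filter of 10, Cd3d was 0.0043 and Cd247 0.037, and Cd247 was 0.0070 with upper quartile scaling. Against controls, Cd4 in Nampt++ samples was -0.045 with the replicate block. In Nampt+ samples Cd3e (0.01) was -0.0085 at the filter of 10, -0.014 with upper quartile scaling, -0.036 with limma at either pseudocount, -0.0041 with the replicate block and -0.012 without both low libraries, where Cd4 was 0.18. The replicate block changed no call of a member. Cd8b had too low a mean for the filter of 10 in the comparisons of Nampt++ samples.

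Leaving out each sample in turn, the log2 fold changes that crossed 0 between Nampt+ and Nampt++ samples ranged over -0.045 to 0.22 for Cd3e, -0.17 to 0.10 for Cd3d, -0.14 to 0.18 for Cd3g, -0.13 to 0.19 for Cd247, -0.38 to 0.052 for Cd4, -0.16 to 0.23 for Lef1 and -0.086 to 0.34 for Tcf7, and the log2 ratio differences over -0.23 to 0.047 for Cd8a to Cd8b and -0.14 to 0.22 for Lef1 to Tcf7. In Nampt++ samples against controls they ranged over -0.22 to 0.047 for Cd3e, -0.24 to 0.013 for Cd3d, -0.32 to 0.054 for Cd3g, -0.59 to 0.12 for Lck, -0.12 to 0.47 for Lef1 and -0.18 to 0.36 for Tcf7, and over -0.21 to 0.057 for Cd8a to Cd8b and -0.28 to 0.16 for Lef1 to Tcf7. In Nampt+ samples against controls they ranged over -0.15 to 0.14 for Cd3e, -0.33 to 0.038 for Cd3g, -0.20 to 0.20 for Cd4, -0.42 to 0.21 for Cd8b, -0.33 to 0.38 for Lck, -0.069 to 0.53 for Lef1 and -0.064 to 0.47 for Tcf7, and over -0.059 to 0.53 for Cd4 to Cd8a, -0.28 to 0.035 for Cd4 to Cd3e and -0.27 to 0.21 for Lef1 to Tcf7. None of these had a p under 0.05. For the ratios against controls this was fixed in advance, since with a sample left out the exact permutation test cannot reach that threshold. The other members kept their direction. All of these rest on 4 CIA rats and 3 controls, and the source of their spread was not tested.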
